A study of Mus musculus with 20 samples.

Results

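The genes described are the ligands lymphotoxin alpha (Lta), lymphotoxin beta (Ltb) and tumour necrosis factor (Tnf) and the receptors Ltbr, Tnfrsf1a (TNFR1) and Tnfrsf1b (TNFR2). These 6 of the 31053 genes in the count matrices were listed by name with earlier results of these data known. They were selected on their level in B, T and myeloid cells of each library, given as CPM, the UMIs of a gene scaled by all UMIs of the cell class in that library. Droplet-based 3′ single-cell RNA-seq was run on unselected live cells from 20 tissues of 13 transgenic mice. Each library is 1 tissue of 1 mouse, so differences between groups were tested over libraries and never over cells.

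All mice were on the C57BL/6N strain according to the sample labels, and the methods name C57BL/6J as the background of the Eµ-TCL1 parents. Eµ-PRMT5 mice carry a human PRMT5 transgene behind an immunoglobulin VH promoter and the IgH-µ enhancer, which directs it to B cells. Eµ-TCL1 mice carry human TCL1 in the same compartment and develop a disease resembling chronic lymphocytic leukemia (CLL). Eµ-PRMT5/TCL1 mice carry both transgenes and serve as a model of Richter's transformation, the change of CLL into an aggressive lymphoma. Spleens came from 5 mice with PRMT5 alone, 4 with TCL1 alone and 4 with both, and lymph nodes from 3 Eµ-TCL1 and 4 Eµ-PRMT5/TCL1 mice, all of which also gave a spleen. The nodes were submandibular. Tissues were taken when a mouse met early removal criteria, the labels name no treatment, and ages are not in them. The Eµ-PRMT5 mice may stem from more than 1 founder, since Eµ-PRMT5 spleen 3 bears the name of a founder. There was no wild-type library, so no value below is a difference from healthy B cells.

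Lymphotoxin alpha is secreted as a homotrimer that binds TNFR1 and TNFR2, and it also joins lymphotoxin beta in a membrane-bound heterotrimer that binds the lymphotoxin beta receptor. That receptor, found on stromal and myeloid cells and largely absent from lymphocytes, drives the formation of lymph nodes and the upkeep of splenic follicles through non-canonical NF-κB. TNF signals through TNFR1, which is broadly expressed and can trigger death or canonical NF-κB, and through TNFR2, which is largely found on leukocytes. B cells are a known source of lymphotoxin in lymphoid tissue, and macrophages are a classic source of TNF.

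The ligand genes lie next to each other on mouse chromosome 17 (GRCm38), Ltb at chr17:35194439-35196320 on the plus strand, Tnf at chr17:35199381-35202007 and Lta at chr17:35203165-35205351, both on the minus strand. Only 3060 bases separate Ltb from Tnf and 1157 bases separate Tnf from Lta. Ltbr, at chr6:125306571-125313885 on the minus strand, is a neighbour of Tnfrsf1a, at chr6:125349362-125362484 on the plus strand, and Tnfrsf1b is at chr4:145213463-145246870 on the minus strand. The upstream sequences of the ligand genes are shown because the neighbours differed in level between groups. They are from RefSeq (GRCm38.p6), read 5′ to 3′ on the strand of the gene and end at the base before the annotated gene. Capitals mark a match to the κB motif, the site bound by NF-κB.
Lta, chr17:35205352-35205601 (minus strand, 250 bases): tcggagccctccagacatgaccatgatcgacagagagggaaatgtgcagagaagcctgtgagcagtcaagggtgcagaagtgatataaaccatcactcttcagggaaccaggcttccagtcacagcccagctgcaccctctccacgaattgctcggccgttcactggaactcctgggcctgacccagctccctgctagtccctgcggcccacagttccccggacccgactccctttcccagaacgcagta
Tnf, chr17:35202008-35202257 (minus strand, 250 bases): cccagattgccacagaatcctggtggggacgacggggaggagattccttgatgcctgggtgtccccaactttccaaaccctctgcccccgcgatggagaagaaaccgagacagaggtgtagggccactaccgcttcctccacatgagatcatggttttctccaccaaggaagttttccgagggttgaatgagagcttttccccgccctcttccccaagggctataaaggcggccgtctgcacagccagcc
Ltb, chr17:35194257-35194438 (plus strand, 182 bases): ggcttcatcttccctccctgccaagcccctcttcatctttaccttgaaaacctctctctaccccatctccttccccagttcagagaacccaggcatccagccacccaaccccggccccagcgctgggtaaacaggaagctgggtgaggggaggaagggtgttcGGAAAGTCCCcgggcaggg
The κB motif (10 bases, either strand) occurred once in the Ltb window, on the minus strand, starting 87 bases before the RefSeq start. That start lies inside the annotated Ltb gene, before which the printed sequence ends. The printed Ltb sequence is therefore shorter than the window of 250 bases, and the capitals stand nearer to its end. The motif had no match within 250 bases before the RefSeq start of Lta, Tnf or a receptor, whereas 7.25% of all 32841 promoter windows of this length held a match. The AP-1 motif TGANTCA, searched on both strands with no overlap with the κB match, had no match in the windows of the 6 genes and occurred in 6.75% of all windows. A match is a description of these letters only.

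In all, 86868 cells were kept, of which 31582 passed the B-cell gate (at least 3 UMIs of Cd79a and Cd79b, none of Cd3d, Cd3e or Cd3g, and under 20 of Jchain), 30735 the T-cell gate and 5192 the myeloid gate. A library held 196 to 5333 B cells, 52 to 4803 T cells and 4 to 1145 myeloid cells, and the 3 nodes with fewer than 20 myeloid cells were left out of myeloid summaries. Median UMIs per B cell ranged from 4288 to 16741 over libraries. The 6 defining B-cell markers were detected in B cells of every library, with a summed level of 1502 to 3730 CPM in all libraries but Eµ-PRMT5 spleen 4, where it was 410 CPM. Pairs of libraries shared at most 71 barcodes, and the highest share of the smaller library, in another pair, was 1.31% (median 0.72%). A CPM is a share of the class's UMIs, so more cells with the gene and more RNA per cell cannot be told apart in it, and shares of cells are given separately. Free RNA was read from barcodes with 1 to 100 UMIs.

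**Figure D1:**
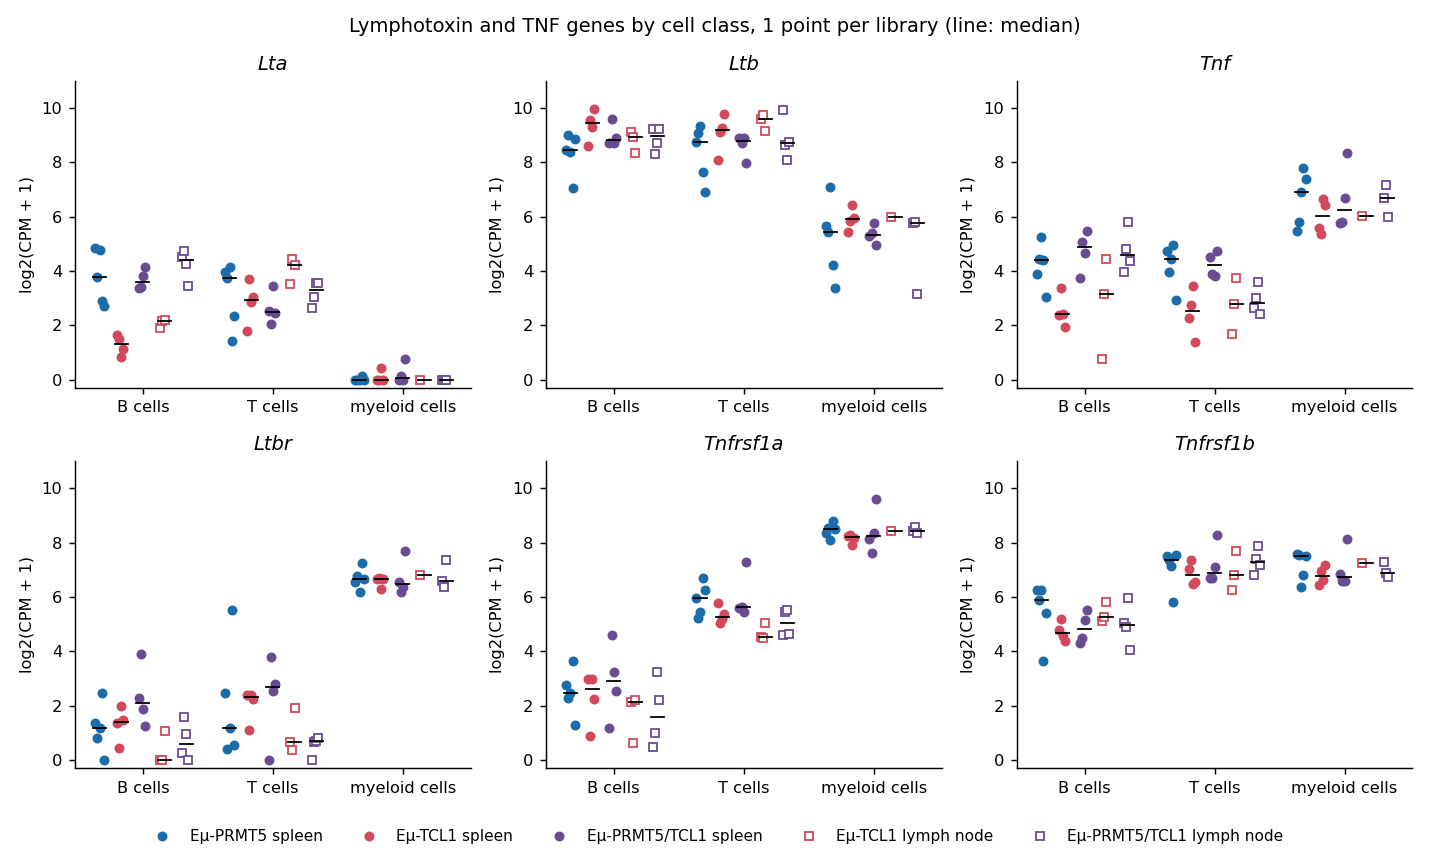
Level of the 6 genes, as log2(CPM + 1), in B, T and myeloid cells. Each point is 1 library in the colour and mark of its group, each line is the median of a group, and nodes with under 20 myeloid cells are left out. Lta is near 0 in myeloid cells, Tnf and all 3 receptors are highest there or shared with T cells, and Ltb is high in B and T cells.

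The ligands were divided among the cell classes. Lta was a lymphocyte transcript. Over the 13 spleens it averaged 10.3 ± 9.1 CPM (SD) in B cells and 7.67 ± 4.94 CPM in T cells, and in myeloid cells 0 to 2 UMIs were counted per library, with 9 of 13 spleens and 4 of 4 nodes at 0. A count of 0 allows up to 0.347 CPM in the deepest of these libraries (827 myeloid cells) and 12.4 CPM in the shallowest. Lta in the free RNA of spleens averaged 7.89 ± 4.58 CPM, above the myeloid mean of 0.094 CPM.

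Ltb was expressed at 513 ± 229 CPM in splenic B cells and 454 ± 208 CPM in splenic T cells, and the order of both classes changed from library to library (T above B in 6 of 13 spleens and 5 of 7 nodes). Myeloid cells had 51.1 ± 32.2 CPM, below B and T cells in 13 of 13 spleens and 4 of 4 nodes. Among T cells, those with a Cd8 transcript had more Ltb than those with Cd4 in 12 of the 13 libraries with enough cells of both (250 to 870 against 159 to 679 CPM).

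Tnf ran the other way. Myeloid cells had 108 ± 84 CPM over the spleens, above B cells (17.9 ± 13.2 CPM) and T cells (14.9 ± 9.2 CPM) in every one of 13 spleens and 4 nodes. B and T cells did not keep an order (T above B in 4 of 13 spleens and 1 of 7 nodes). Between classes these values are descriptions without a test, since cells were assigned to a class from genes of the same libraries.

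The main difference between the models was in Lta of B cells. In Eµ-PRMT5 spleens B cells had 28.1, 12.9, 26.6, 6.46 and 5.50 CPM of Lta (202, 34, 215, 94 and 19 UMIs). In Eµ-TCL1 spleens they had 2.11, 1.79, 0.771 and 1.16 CPM (15, 63, 9 and 25 UMIs). Every Eµ-PRMT5 spleen lay above every Eµ-TCL1 spleen, with spleens 1 and 3 the highest and spleens 4 and 5 the lowest of the Eµ-PRMT5 group. Lta was 3.31 ± 0.48 higher on the log2 scale (standard error; edgeR quasi-likelihood test with Benjamini-Hochberg adjustment, adjusted p = 0.0424 over 11590 genes), and it was the only 1 of the 6 genes called, beside 0.0259% of all genes tested, while DESeq2 called 3 (Lta, Tnf and Ltb), beside 5.74% of all genes. Groups without overlap were seen for 1 of the 6 genes, Lta, beside 4.94% of all genes.

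The direction and size of this difference held in all alternatives (2.93 to 3.53 on the log2 scale), but the call did not. The adjusted p was 0.291 with sex, read from Xist and Y-linked transcripts, as a covariate, 0.0543 with all cells of at least 500 UMIs, and 0.0117 to 0.224 with 1 of the 13 spleens left out, below 0.05 in 3 of 13 such fits. The groups differed in sex, with 1 male of 5 Eµ-PRMT5 mice and 3 of 4 Eµ-TCL1 mice. The only female Eµ-TCL1 spleen had 2.11 CPM against 6.46 to 28.1 CPM in the 4 females of the Eµ-PRMT5 group, and the male Eµ-PRMT5 spleen had 5.50 CPM against 0.771 to 1.79 CPM in the 3 Eµ-TCL1 males.

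B cells of Eµ-PRMT5/TCL1 spleens had 9.38, 9.70, 12.96 and 16.9 CPM of Lta (314, 26, 195 and 269 UMIs). All 4 lay above all Eµ-TCL1 spleens and within the range of the Eµ-PRMT5 spleens. The difference from Eµ-TCL1 was 2.96 ± 0.49, but it did not pass the correction over all genes in edgeR (adjusted p = 0.185), while DESeq2 gave an adjusted p of 8.47e-06. None of the 6 genes was called by edgeR here, beside 0.00863% of all genes. DESeq2 called 2, beside 0.182% of all genes, and 2 had an unadjusted p under 0.05 in edgeR (Lta and Tnf), beside 4.56%. With sex as a covariate the difference of Lta was 2.72 (edgeR adjusted p = 0.608). This group too had 1 male of 4 against 3 of 4 in Eµ-TCL1 spleens. Its 3 females had 9.38 to 12.96 CPM against 2.11 CPM in the female Eµ-TCL1 spleen, and its male had 16.9 CPM against 0.771 to 1.79 CPM in the Eµ-TCL1 males. The groups did not overlap for 2 of 6 genes, Lta and Tnf, beside 3.27% of all genes. When Eµ-PRMT5/TCL1 was set against the Eµ-PRMT5 group, Lta differed by -0.35 ± 0.43 in spleen (edgeR adjusted p = 0.835), and none of the 6 genes was called by edgeR or DESeq2 or had an unadjusted p under 0.05, beside 0%, 0.911% and 8.78% of all genes.

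The lymph nodes, from 7 of the same mice, showed the same order. Eµ-TCL1 nodes had 2.71, 3.43 and 3.53 CPM of Lta in B cells (4, 32 and 60 UMIs) and Eµ-PRMT5/TCL1 nodes had 22.2, 26.02, 18.2 and 9.94 CPM (118, 413, 39 and 81 UMIs). The groups did not overlap, and the lowest Eµ-PRMT5/TCL1 node, node 4, still lay above the highest Eµ-TCL1 node. The 4 plasma-cell markers (Jchain, Xbp1, Sdc1 and Tnfrsf17), of which 3 or 4 were detected, also separated these B cells, summing to 526 to 644 CPM in Eµ-TCL1 nodes while Eµ-PRMT5/TCL1 nodes had 52.6 to 309 CPM, and their part was not tested. In spleens this sum overlapped, at 130 to 341 CPM in Eµ-PRMT5, 192 to 699 CPM in Eµ-TCL1 and 79.4 to 368 CPM in Eµ-PRMT5/TCL1 B cells. The difference of Lta between the nodes was 2.54 ± 0.36 (edgeR adjusted p = 0.338, DESeq2 adjusted p = 5.32e-06). Of the 5 genes tested in nodes, edgeR called 0, beside 0% of all genes, DESeq2 called 1, beside 0.573%, and 1 had an unadjusted p under 0.05, beside 6.8%. Of these nodes 2 of 3 Eµ-TCL1 and 1 of 4 Eµ-PRMT5/TCL1 were male. The male Eµ-PRMT5/TCL1 node had 22.2 CPM against 3.43 and 3.53 CPM, and the females 9.94 to 26.02 CPM against 2.71 CPM. Lta alone was without overlap, beside 6.27% of all genes.

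**Figure D2:**
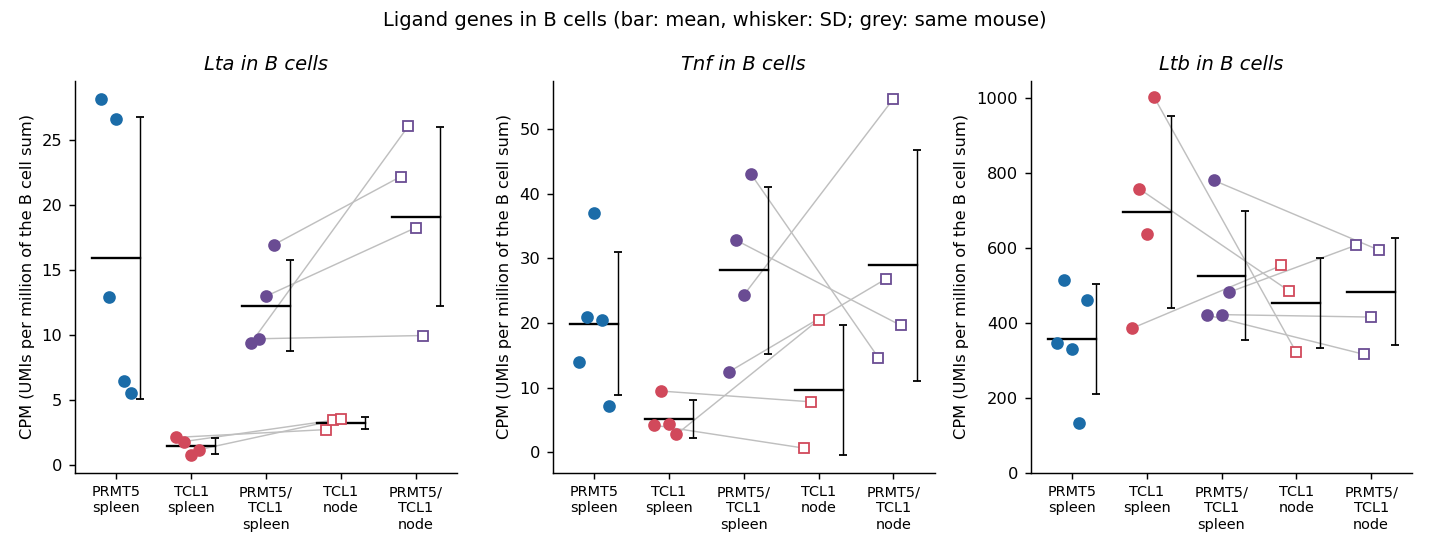
Lta, Tnf and Ltb in B cells (CPM, linear axes) by group, with each point 1 library, each bar the mean, each whisker the SD and grey lines joining tissues of 1 mouse. Lta in the 4 Eµ-TCL1 spleens (0.771 to 2.11 CPM) and 3 Eµ-TCL1 nodes (2.71 to 3.53 CPM) lies below every library that carries the PRMT5 transgene (5.50 to 28.1 CPM).

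Cells with at least 3 Lta UMIs carried 0 to 29.8% of the Lta UMIs of B cells in spleens and 0 to 38.5% in nodes. The highest values were in Eµ-PRMT5 spleen 4, where 3 cells of 823 held 29.8% (14 UMIs in 1 cell), and Eµ-PRMT5/TCL1 node 3, where 5 cells held 38.5%. Without thinning, 8.95 ± 3.39% of Eµ-PRMT5 B cells (4.01 to 12.8%), 1.05 ± 0.44% of Eµ-TCL1 B cells (0.726 to 1.69%) and 7.93 ± 2.93% of Eµ-PRMT5/TCL1 B cells in spleen had an Lta UMI. In nodes the shares were 2.54 ± 0.53% and 10.3 ± 6.5%. In myeloid cells, which should lack Lta, the share was 0 to 0.476% in spleens and 0% in nodes. After each cell was thinned to 1000 UMIs, so that depth was equal and no cell was left out, the shares fell to 1.45 ± 1.21% in Eµ-PRMT5, 0.230 ± 0.116% in Eµ-TCL1 and 1.44 ± 0.62% in Eµ-PRMT5/TCL1 spleens. The share tests of Lta were added after its CPM values were seen, on the same libraries and UMIs, so they give no separate support. The difference between Eµ-PRMT5/TCL1 and Eµ-TCL1 had p = 0.0286 in an exact permutation test, the smallest that 4 against 4 libraries can give, and 0.143 after Benjamini-Hochberg adjustment over 15 such tests. That of Eµ-PRMT5 and Eµ-TCL1 had p = 0.175 by the same exact test (adjusted 0.374), and Eµ-PRMT5 spleens 4 and 5, at 0.122% and 0.223% after thinning, fell within the Eµ-TCL1 range of 0.0806% to 0.363%, on 1 cell with a UMI each. Thinned to 2000 UMIs the same spleens were at 1.09% and 1.34%, above the Eµ-TCL1 range of 0.125% to 0.847%, and the groups did not overlap (2.98 ± 1.78% against 0.359 ± 0.335%, exact permutation p = 0.0159, adjusted 0.107). In nodes the thinned shares were 1.96 ± 0.50% against 0.512 ± 0.108% (exact permutation p = 0.0571, the smallest that 4 against 3 can give, adjusted 0.214).

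In T cells of the same libraries the groups overlapped for Lta. It was at 14.5, 12.4, 16.7, 1.66 and 4.13 CPM in the Eµ-PRMT5 group, 2.44, 12.04, 6.27 and 7.20 CPM in Eµ-TCL1 and 4.75, 3.12, 10.0 and 4.504 CPM in Eµ-PRMT5/TCL1 spleens. The differences from Eµ-TCL1 were 0.58 ± 0.55 in the Eµ-PRMT5 and -0.35 ± 0.59 in the Eµ-PRMT5/TCL1 group (edgeR adjusted p = 0.920 and 0.905). In nodes T cells had 10.47, 20.6 and 17.6 CPM in Eµ-TCL1 and 5.18, 7.31, 10.7 and 10.7 CPM in Eµ-PRMT5/TCL1 mice, a difference of -0.58 ± 0.32 (edgeR adjusted p = 0.432). Whether the genotype difference of B cells exceeds that of T cells was not tested. Within a library, B cells had more Lta than T cells in 5 of 5 Eµ-PRMT5 spleens, 4 of 4 Eµ-PRMT5/TCL1 spleens and 3 of 4 Eµ-PRMT5/TCL1 nodes, and in 0 of 4 spleens and 0 of 3 nodes of Eµ-TCL1 mice. The T-cell value of Eµ-PRMT5 spleen 4 rests on 1 of 52 cells with an Lta UMI.

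**Figure D3:**
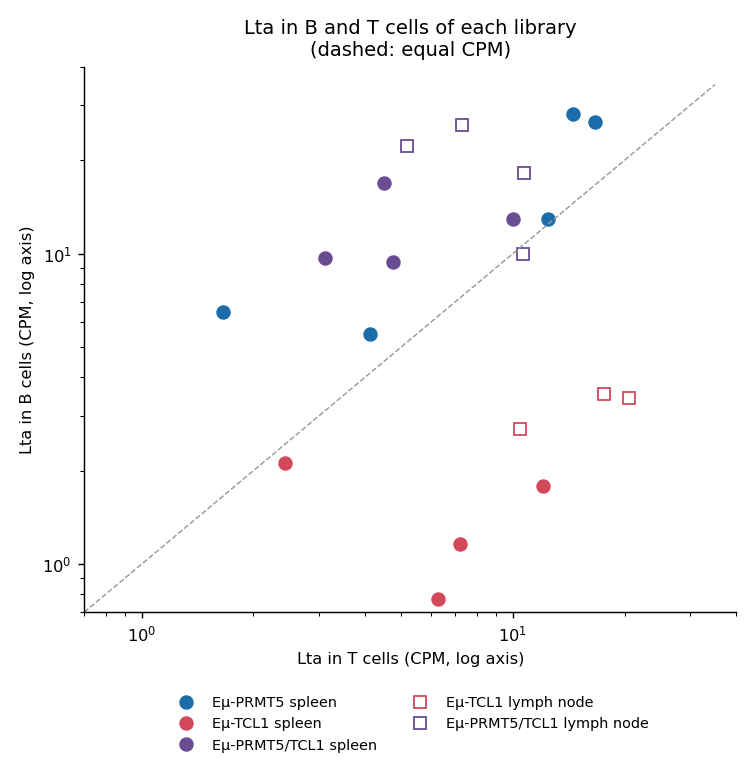
Lta in B cells (vertical) against T cells (horizontal) of the same library, both as CPM on log axes, with filled circles for spleens, open squares for nodes and a dashed line of equality. All 7 Eµ-TCL1 libraries lie below the line and 12 of 13 libraries with the PRMT5 transgene lie above it.

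Other values moved with the B-cell difference, and their part in it was not tested. The summed level of 12 immediate early and heat shock genes in B cells, which can rise when tissue is dissociated, was 2355 to 9586 CPM in the Eµ-PRMT5 group, 1418 to 2406 CPM in Eµ-TCL1 and 1514 to 6214 CPM in Eµ-PRMT5/TCL1 spleens. The study also reported some of these genes as enriched in B cells or B-cell clusters of mice with the PRMT5 transgene. In its bulk RNA-seq, Fos and Jun family members were instead enriched in Eµ-TCL1 against Eµ-PRMT5 tumours. The Spearman correlation of the list sum with Lta over the 13 spleens was 0.60. Eµ-PRMT5 spleen 1 had the most of both among the spleens (9586 and 28.1 CPM). Eµ-PRMT5/TCL1 spleen 4 had the most of both in its group (6214 and 16.9 CPM). Eµ-PRMT5/TCL1 spleens 1 to 3, at 1514 to 2290 CPM of this list, had 9.38 to 12.96 CPM of Lta. The 6 T-cell markers summed to 27.4 to 51.8 CPM in B cells of Eµ-PRMT5, 12.98 to 140 CPM in Eµ-TCL1 and 34.8 to 187 CPM in Eµ-PRMT5/TCL1 spleens, and the ranges overlapped. Lta in free RNA was 4.22 to 14.1 CPM, 1.18 to 7.84 CPM and 3.59 to 12.6 CPM in these groups, and B cells exceeded the free RNA of their own library in 4 of 5 Eµ-PRMT5, 1 of 4 Eµ-TCL1 and 3 of 4 Eµ-PRMT5/TCL1 spleens.

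In the spleens whose B cells could be split by their heavy chain V gene, Lta UMIs were counted on both sides. The gene with the most Ighv UMIs was taken as the leading gene, and 6 spleens had at least 30 B cells with it and 30 with another. It held 63.1 to 89.7% of the Ighv UMIs in 4 of these spleens, but 31.1% in Eµ-PRMT5 spleen 3 (514 cells against 798 others) and 37.9% in Eµ-TCL1 spleen 3 (351 against 769), so in both of these the leading gene marked a minority of the cells. Among spleens not split, it marked 26 cells against 906 others in Eµ-PRMT5 spleen 1 and 13 against 234 in spleen 2. It marked 803 against 2 in Eµ-PRMT5 spleen 4 and 239 against 4 in Eµ-PRMT5/TCL1 spleen 2. In Eµ-TCL1 spleens 1, 2 and 4 it marked 742 against 2, 5134 against 27 and 2323 against 17. The B cells compared between groups thus differed in clonality, and the part of this in the Lta difference was not tested. This split was also added for Lta after its values were seen. Cells of the leading gene had more Lta in 5 of 6 spleens, by 0.74 ± 1.16 on the log2 scale (SD, n = 6; exact sign-flip permutation p = 0.188, adjusted 0.5 over 6 tests). In the 3 nodes that could be split, Lta was higher in the leading cells of 1 of 3, and the mean of -1.24 ± 3.45 (exact permutation p = 0.75, adjusted 0.9) turned to 0.63 without Eµ-TCL1 node 1, which had 0 UMIs in 116 leading cells against 3 UMIs in 51 others. In cells with other Ighv genes Lta was at 16.2 and 12.7 CPM in Eµ-PRMT5 spleens 3 and 5 (80 and 6 UMIs), 0.492 CPM in Eµ-TCL1 spleen 3 (4 UMIs) and 5.65, 5.10 and 7.38 CPM in Eµ-PRMT5/TCL1 spleens 1, 3 and 4 (17, 3 and 5 UMIs). On these few UMIs, the 5 spleens with the PRMT5 transgene lay above the 1 Eµ-TCL1 spleen outside the leading gene too.

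Tnf in B cells showed a smaller difference in the same direction, which passed the correction over all genes in DESeq2 and not in edgeR. It was at 13.9, 20.9, 37.0, 20.5 and 7.23 CPM in the Eµ-PRMT5 group, 4.22, 9.49, 4.37 and 2.79 CPM in Eµ-TCL1 and 12.5, 32.8, 24.3 and 43.0 CPM in Eµ-PRMT5/TCL1 spleens. Eµ-PRMT5 spleen 5 fell within the Eµ-TCL1 range, and Eµ-PRMT5/TCL1 did not overlap with Eµ-TCL1. The difference from Eµ-TCL1 was 1.84 ± 0.47 for Eµ-PRMT5 (edgeR adjusted p = 0.123) and 2.28 ± 0.49 for Eµ-PRMT5/TCL1 (edgeR adjusted p = 0.895), and DESeq2 gave adjusted p of 0.00666 and 0.00878. With sex as a covariate the differences were 1.75 and 2.22 (edgeR adjusted p = 0.338 and 0.998). Females had 13.9 to 37.0 CPM in the Eµ-PRMT5 and 12.5 to 32.8 CPM in the Eµ-PRMT5/TCL1 group against 4.22 CPM in Eµ-TCL1, and the males 7.23 and 43.0 CPM against 2.79 to 9.49 CPM. Both comparisons used the same 4 Eµ-TCL1 spleens. In nodes Tnf was at 0.678, 7.83 and 20.5 CPM in Eµ-TCL1 and 14.6, 26.8, 54.7 and 19.6 CPM in Eµ-PRMT5/TCL1 mice, with Eµ-TCL1 node 3 inside the other group's range (difference 1.44 ± 0.77, edgeR adjusted p = 0.821). The lowest value, in Eµ-TCL1 node 1, rests on 1 UMI in 196 cells. The difference was 2.54 without Eµ-TCL1 node 3 and 0.94 without Eµ-PRMT5/TCL1 node 3.

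Much of the Tnf sum came from few B cells in some libraries. In spleens, cells with at least 3 Tnf UMIs carried 0 to 67.0% of all Tnf UMIs of B cells, and 11 such cells of 262 held the 67.0% in Eµ-PRMT5/TCL1 spleen 2. After thinning to 1000 UMIs, 1.88 ± 0.66% of Eµ-PRMT5, 0.572 ± 0.319% of Eµ-TCL1 and 2.01 ± 1.04% of Eµ-PRMT5/TCL1 B cells in spleen had a Tnf UMI (exact permutation p = 0.0159 and 0.0286 against Eµ-TCL1, the smallest that these group sizes allow, both 0.143 after adjustment over 15 tests). Without thinning the shares were 9.61 ± 4.10%, 2.78 ± 1.23% and 12.02 ± 5.05%.

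The Tnf values of splenic T cells were also higher on average in both groups with the PRMT5 transgene, without passing the correction. T cells had 25.7, 14.8, 20.8, 29.8 and 6.66 CPM in the Eµ-PRMT5 group, 3.88, 5.73, 9.97 and 1.60 CPM in Eµ-TCL1 and 21.9, 13.9, 13.2 and 26.02 CPM in Eµ-PRMT5/TCL1 spleens. The last group did not overlap with Eµ-TCL1, and Eµ-PRMT5 spleen 5 did. The differences from Eµ-TCL1 were 1.76 ± 0.47 (edgeR adjusted p = 0.734) and 1.60 ± 0.48 (edgeR adjusted p = 0.683). In T cells edgeR and DESeq2 called none of the 6 genes in any genotype comparison of spleens. Tnf was the single gene of the 6 with an unadjusted p under 0.05 against Eµ-TCL1 in either comparison, beside 5.98% of all genes in the first comparison and 7.08% in the second. All genes called by edgeR made up 0.0357% in Eµ-PRMT5 against Eµ-TCL1, 0% in Eµ-PRMT5/TCL1 against Eµ-TCL1 and 0% in Eµ-PRMT5/TCL1 against Eµ-PRMT5 T cells, and those called by DESeq2 0.224%, 0.0269% and 0.0627%. In the last comparison 0 of the 6 genes had an unadjusted p under 0.05, beside 4.83% of all genes. Tnf was 1 of 6 genes without overlap between Eµ-PRMT5/TCL1 and Eµ-TCL1 T cells, beside 3.87% of all genes. In the T cells of the Cd4 gate, over the libraries with at least 20 such cells, Tnf had a median of 35.1 CPM in 8 spleens (3.44 to 113 CPM, 186 UMIs in all) and 3.87 CPM in 5 nodes (0 to 11.4 CPM, 14 UMIs). Only 1 of these 8 spleens was Eµ-TCL1 and none of the nodes Eµ-PRMT5, so the group medians of the tissues mix genotypes. Within the 4 mice with 20 such cells in both tissues, Tnf was lower in the node in 3 of 3 Eµ-PRMT5/TCL1 mice (113 against 0, 15.9 against 2.67 and 25.7 against 3.87 CPM) and higher in the 1 Eµ-TCL1 mouse (3.44 against 4.72 CPM), without a test. The 3 Eµ-PRMT5/TCL1 pairs rest on 22 and 36, 128 and 185, and 27 and 90 cells in spleen and node. Their nodes held 4 Tnf UMIs together, so the size of these steps is uncertain and the 0 is not an absence.

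In nodes T cells had 2.19, 5.92 and 12.4 CPM of Tnf in Eµ-TCL1 and 5.18, 7.11, 11.1 and 4.33 CPM in Eµ-PRMT5/TCL1 mice, and the groups overlapped (0.44 ± 0.61, edgeR adjusted p = 0.762). Of the 5 genes tested in T cells of nodes, 0 were called by edgeR or DESeq2 and 0 had an unadjusted p under 0.05, beside 0%, 1.21% and 14.1% of all genes. The immediate early and heat shock list moved with Tnf in T cells too, at 2138 to 3634 CPM in the Eµ-PRMT5 group, 800 to 1316 CPM in Eµ-TCL1 and 998 to 4740 CPM in Eµ-PRMT5/TCL1 spleens, and its part was not tested. In B cells its Spearman correlation with Tnf over 13 spleens was 0.51. The 6 myeloid markers in B cells summed to 140 to 265 CPM in Eµ-PRMT5 and 275 to 349 CPM in Eµ-TCL1 spleens, without overlap. In Eµ-PRMT5/TCL1 spleens they summed to 242 to 713 CPM, a range that overlapped with Eµ-TCL1 and reached above it. The free RNA of spleens held 28.9 ± 12.1 CPM of Tnf, more than the mean of B cells. Its group means were 28.4 CPM in Eµ-PRMT5, 24.5 CPM in Eµ-TCL1 and 33.8 CPM in Eµ-PRMT5/TCL1 spleens. The part of myeloid or free RNA in the Tnf difference of B cells was not tested.

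In myeloid cells of spleens Tnf was at 44.0, 54.7, 118, 221 and 165 CPM in the Eµ-PRMT5 group, 47.6, 40.7, 101 and 84.5 CPM in Eµ-TCL1 and 53.6, 55.3, 101 and 323 CPM in Eµ-PRMT5/TCL1 mice. The groups overlapped, with Eµ-PRMT5/TCL1 spleen 4 and Eµ-PRMT5 spleens 4 and 5 the highest. None of the 5 genes tested in myeloid cells (Lta was too low) was called by edgeR or DESeq2 or had an unadjusted p under 0.05, beside 0%, 0.011% and 3.06% of all genes in Eµ-PRMT5 against Eµ-TCL1, 0%, 0% and 1.75% in Eµ-PRMT5/TCL1 against Eµ-TCL1 and 0%, 0% and 3.11% in Eµ-PRMT5/TCL1 against Eµ-PRMT5. The difference of Tnf from Eµ-TCL1 was 0.82 ± 0.52 in the Eµ-PRMT5 and 0.69 ± 0.54 in the Eµ-PRMT5/TCL1 group (edgeR adjusted p = 1.00 and 0.999). Too few nodes held 20 myeloid cells for a test there.

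Ltb in B cells did not follow its neighbours. It was at 348, 514, 331, 132 and 461 CPM in the Eµ-PRMT5 group, 385, 758, 639 and 1002 CPM in Eµ-TCL1 and 421, 780, 422 and 482 CPM in Eµ-PRMT5/TCL1 spleens. The groups overlapped, with Eµ-PRMT5 spleen 4 the lowest and Eµ-TCL1 spleen 4 the highest of all. Ltb differed by -1.08 ± 0.35 between Eµ-PRMT5 and Eµ-TCL1 (edgeR adjusted p = 0.167, DESeq2 adjusted p = 0.0474) and by -0.47 ± 0.37 between Eµ-PRMT5/TCL1 and Eµ-TCL1 (edgeR adjusted p = 0.999). Nodes had 553, 486 and 321 CPM in Eµ-TCL1 and 608, 316, 416 and 595 CPM in Eµ-PRMT5/TCL1 mice, with a difference of 0.20 ± 0.29 (edgeR adjusted p = 0.937).

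Most B cells had an Ltb UMI. After thinning to 1000 UMIs it was 29.0 ± 9.8% in Eµ-PRMT5, 42.5 ± 10.1% in Eµ-TCL1 and 36.7 ± 6.8% in Eµ-PRMT5/TCL1 spleens (exact permutation p = 0.111 and 0.343 against Eµ-TCL1, adjusted 0.286 and 0.429), and without thinning 68.1 ± 12.3%, 84.3 ± 6.2% and 80.6 ± 7.5%. In T cells of spleens Ltb ranged from 119 CPM in Eµ-PRMT5 spleen 5, the library with the most T cells, to 888 CPM in Eµ-TCL1 spleen 4, and the groups overlapped. Over the 13 spleens, all from different mice but of different depth and genotype, B-cell Lta and Tnf had a Spearman correlation of 0.81, and Ltb had -0.48 with Lta and -0.24 with Tnf.

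The genes whose B-cell level was most like Ltb over the 13 spleens, of 5711 genes with a mean of at least 20 CPM, were Fth1 (ferritin heavy chain, Spearman correlation 0.90), Ptov1 (0.88), Pik3cd (the PI3K delta catalytic subunit, 0.86), Ttc33 (0.84) and Evi5 (0.84). Those most like Tnf were Tgs1 (an RNA cap methyltransferase, 0.90), Slc38a1 (an amino acid transporter, 0.86), Sumo3 (0.85), Rcc2 (0.85) and Canx (the chaperone calnexin, 0.84). No immediate early or heat shock gene of the list was among these 10. So short a ranking of 5711 genes cannot tell whether the list moved with Ltb or Tnf. The list sum itself had a Spearman correlation of 0.51 with Tnf and -0.15 with Ltb. Genes most like Lta were not listed.

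**Figure D4:**
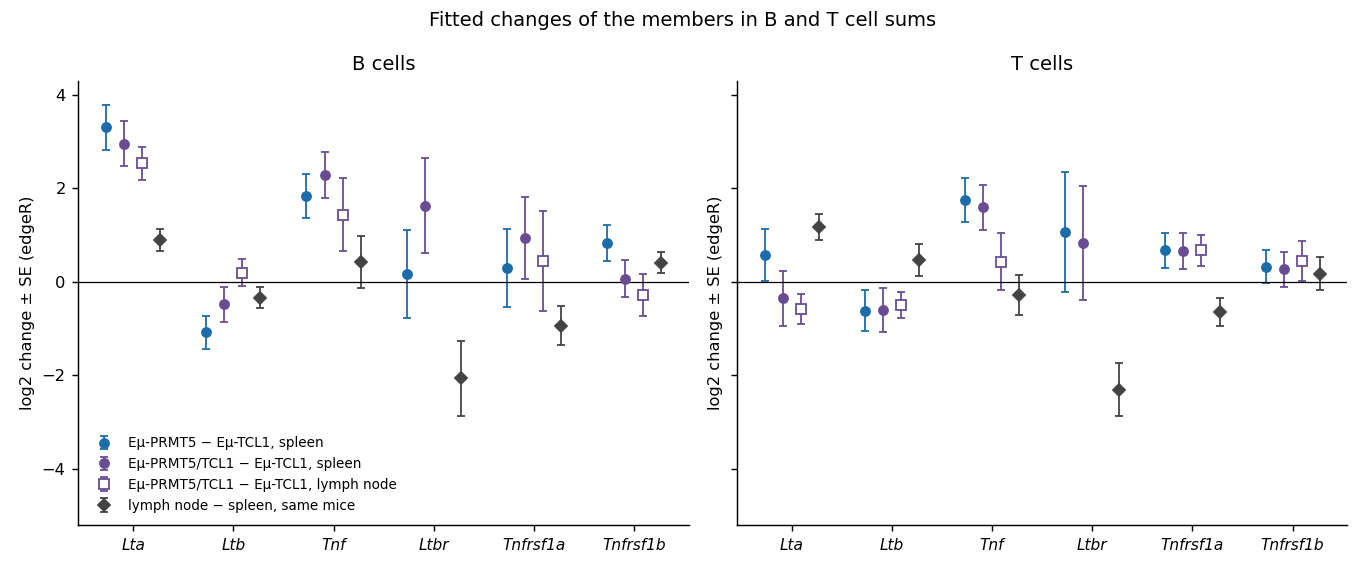
Log2 change with standard error (vertical) of each of the 6 genes (horizontal) in B cells (left) and T cells (right), from the edgeR fits against Eµ-TCL1 in spleens and nodes and of node against spleen. Ltbr was not tested between nodes. Lta in B cells, at 3.31, 2.96 and 2.54, lies farthest from 0 among the genotype comparisons, and only the first passed the correction over all genes.

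Lymph node and spleen could be compared within 7 mice. In B cells Lta was higher in the node than in the spleen of all 7 mice, with a log2 difference of 0.89 ± 0.23 (edgeR adjusted p = 0.241, DESeq2 adjusted p = 0.0349), at 1.05 ± 0.37 in Eµ-TCL1 and 0.73 ± 0.28 in Eµ-PRMT5/TCL1 mice. In T cells it was again higher in the node of all 7 mice, by 1.18 ± 0.28 (edgeR adjusted p = 0.105, DESeq2 adjusted p = 0.0104). In CPM, the widest step of the 7 mice was from 9.38 to 26.02 in B cells (Eµ-PRMT5/TCL1 spleen 1 and node 2) and from 7.20 to 17.6 in T cells (Eµ-TCL1 spleen 4 and node 3). The narrowest in B cells was from 9.70 to 9.94 (Eµ-PRMT5/TCL1 spleen 2 and node 4). The summed immediate early and heat shock genes were also higher in the node in 6 of the 7 mice in B cells (1418 to 2406 CPM in spleens and 1870 to 6536 CPM in nodes of these 6) and in 3 of 7 in T cells, and their part was not tested. In the remaining mouse they went from 6214 to 1678 CPM in B cells, where Lta went from 16.9 to 22.2 CPM. Tnf and Ltb did not keep a direction, with Tnf higher in the node in 3 of 7 mice in B cells (0.42 ± 0.55) and 2 of 7 in T cells (-0.28 ± 0.43), and Ltb in 2 of 7 in B cells (-0.34 ± 0.22) and 4 of 7 in T cells (0.47 ± 0.34).

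Of the receptors, Ltbr differed between node and spleen by -2.31 ± 0.57 in T cells (edgeR adjusted p = 0.120, DESeq2 adjusted p = 0.0103) and -2.07 ± 0.80 in B cells (edgeR adjusted p = 0.441), higher in the node in 1 of 7 and 0 of 7 mice. The value in B cells ranged from -4.23, without the mouse of Eµ-TCL1 spleen 4 and node 3, to -1.45, without that of Eµ-PRMT5/TCL1 spleen 2 and node 4. Tnfrsf1a was higher in the node in 1 of 7 mice in both classes. Both receptors had their highest level in myeloid cells, which were fewer in nodes (4 to 144 per node against 39 to 1145 per spleen), and the part of myeloid RNA was not tested. In B cells edgeR called 0 of the 6 genes between tissues, beside 0.0168% of all genes, with 3 at an unadjusted p under 0.05, beside 10.1%, and 1 called by DESeq2, beside 2.01%. In T cells edgeR called 0 of 6, beside 0.631% of all genes, with 2 at an unadjusted p under 0.05, beside 14.3%. DESeq2 called 2, beside 3.85%, Lta and Ltbr, which edgeR also called when no filter on low counts was applied (adjusted p = 0.0394 and 0.0491). The difference of the tissue effects between Eµ-PRMT5/TCL1 and Eµ-TCL1 mice was called for 0 of the 6 genes by edgeR or DESeq2 in either class, with none at an unadjusted p under 0.05. All genes called were 0% in B cells and 0% in T cells by both tools, and those at an unadjusted p under 0.05 were 1.91% and 2.14%.

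The receptors were, by level, genes of myeloid cells and partly of T cells. Ltbr was at 71.4 to 204 CPM (median 99.5) in myeloid cells of spleens, above B and T cells of the same library in 13 of 13 spleens and 4 of 4 nodes. In B cells it was at 0 to 4.54 CPM in every spleen but Eµ-PRMT5/TCL1 spleen 2, where 37 UMIs gave 13.8 CPM, and at 0 to 2.02 CPM in nodes. B cells of 1 spleen and 3 nodes had no Ltbr UMI, which allows up to 0.868 CPM in Eµ-PRMT5 spleen 5 and 0.322 CPM in Eµ-TCL1 node 2. More is allowed in Eµ-TCL1 node 1, where 1 UMI in 196 B cells amounts to 0.678 CPM. Eµ-PRMT5/TCL1 spleen 2 also had the highest summed level of 6 myeloid markers in B cells, 713 CPM against 140 to 435 CPM in all others. In T cells Ltbr was at 0 to 12.96 CPM in all libraries but Eµ-PRMT5 spleen 4, where 27 UMIs from 52 cells gave 44.7 CPM and myeloid markers summed to 1157 CPM, the second highest in T cells. The part of myeloid RNA in these Ltbr levels was not tested. The free RNA of spleens held 9.52 ± 4.67 CPM of Ltbr (SD, n = 13), above the means of B cells (2.80 ± 3.56 CPM) and T cells (6.80 ± 11.9 CPM).

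Tnfrsf1a was at 197 to 785 CPM (median 307) in myeloid cells, 32.1 to 156 CPM (median 47.5) in T cells and 0.824 to 23.1 CPM (median 4.84) in B cells of spleens. The order myeloid, T, B held in 13 of 13 spleens and in the 4 nodes with myeloid cells. T cells exceeded B cells in the other nodes as well. The free RNA of spleens held 14.4 to 58.2 CPM of Tnfrsf1a (median 45.2), a median near that of T cells.

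Tnfrsf1b had another order. It was at 82.5 to 278 CPM (median 115) in myeloid and 54.7 to 312 CPM (median 136) in T cells of spleens, and these neighbours changed places, myeloid cells being higher in 6 of 13 spleens and 0 of 4 nodes. B cells were below T cells in all 20 libraries and below myeloid cells in all 17 with enough of them, at 11.4 to 75.8 CPM (median 34.6) in spleens. In B cells it was at 75.8, 58.9, 74.7, 11.4 and 41.7 CPM in the Eµ-PRMT5 group, 26.3, 35.7, 22.8 and 20.1 CPM in Eµ-TCL1 and 18.9, 21.3, 34.6 and 45.3 CPM in Eµ-PRMT5/TCL1 spleens. Apart from Eµ-PRMT5 spleen 4, the lowest of all, the Eµ-PRMT5 spleens lay above the Eµ-TCL1 spleens, and the difference of 0.84 ± 0.38 did not pass the correction (edgeR adjusted p = 0.289).

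The myeloid gate held cells of unlike receptor and ligand levels. It was divided in order into cells with at least 10 UMIs of the primary granule genes Mpo, Elane, Prtn3 and Ctsg, cells with at least 50 UMIs of S100a8 and S100a9, and the rest. The S100a8 cells were rich in Camp, Ngp and Ltf, genes of the secondary granules of neutrophils (medians 38274, 67754 and 10623 CPM over 11 spleens), and the rest in Csf1r and Cd14, genes of monocytes and macrophages (medians 382 and 636 CPM over 13 spleens).

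Ltb was concentrated in the S100a8 cells. They had 37.4 to 180 CPM against 0 to 26.7 CPM in the rest, and were higher in all 13 libraries with at least 20 cells in both. Against the Mpo cells they had 37.4 to 166 against 2.22 to 23.04 CPM and were higher in 7 of 7 libraries. The 6 T-cell markers summed to 0 to 19.3 CPM in them, and the 6 B-cell markers to 126 to 430 CPM, with 1 to 4 of the 6 detected. Cd37, a tetraspanin of several leukocyte types, made up most of this sum (median 253 CPM, 124 to 426 over 11 spleens), while Ms4a1 had a median of 0.574 CPM against 492 CPM in splenic B cells. Outside that list, Cd79a had a median of 1.58 CPM and Cd74, an MHC class II chaperone, 113 CPM. The part of RNA from other cells in the Ltb level was not tested.

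**Figure D5:**
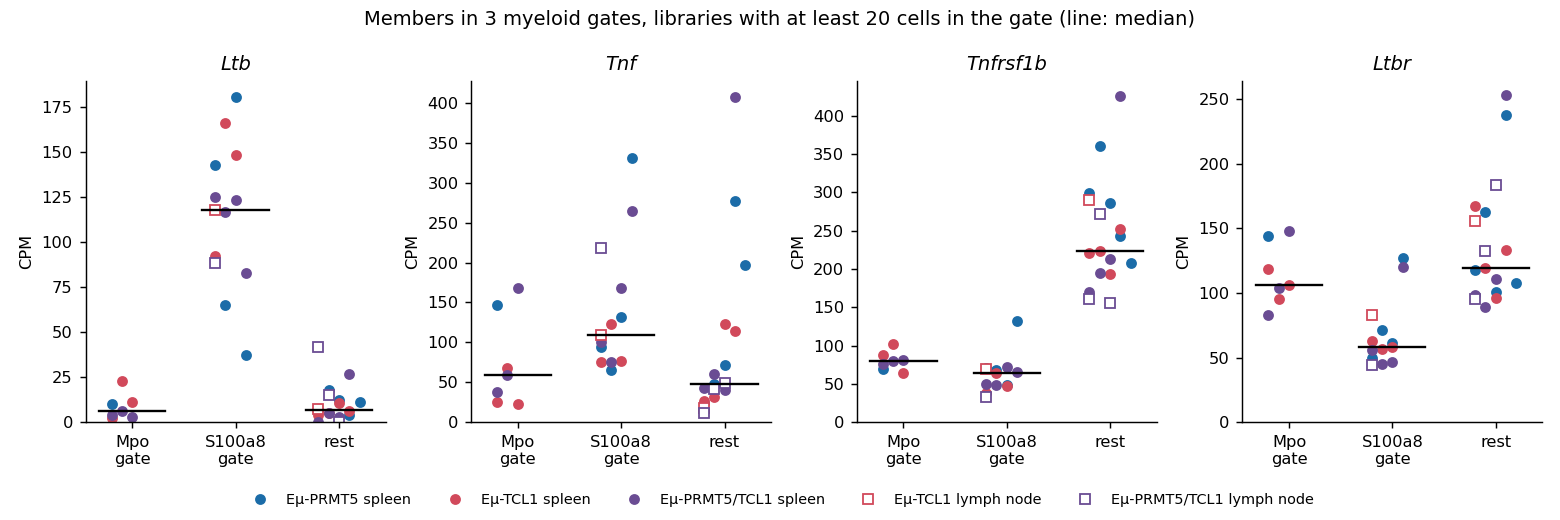
CPM (linear axes from 0) of Ltb, Tnf, Tnfrsf1b and Ltbr in the Mpo, S100a8 and remaining cells of the myeloid gate. Each point is 1 library with at least 20 cells in the gate and each line the median. Ltb is highest in the S100a8 cells, while Ltbr and Tnfrsf1b are higher in the rest.

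The receptors were lower in S100a8 cells than in the rest in most libraries. Tnfrsf1b was at 32.7 to 132 CPM in S100a8 cells and 170 to 426 CPM in the rest, without overlap, and Ltbr at 44.3 to 127 against 88.9 to 254 CPM, both lower in S100a8 cells in 13 of 13 libraries. Tnfrsf1a was lower in S100a8 cells in 10 of 13 libraries (175 to 682 against 229 to 946 CPM). Against the Mpo cells, S100a8 cells were lower in 7 of 7 libraries for Ltbr and higher in 1 of 7 for Tnfrsf1b and in 4 of 7 for Tnfrsf1a. Tnf was higher in S100a8 cells than in the rest in 11 of 13 libraries (65.1 to 332 against 17.7 to 408 CPM).

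Of 38 genes that act with these ligands and receptors, listed by function with earlier results known, 36 or 37 were tested in each comparison and edgeR called none. In B cells of Eµ-PRMT5 against Eµ-TCL1 spleens, 29 of the 36 tested were higher, with a median change of 0.42 beside 0.01 over all genes. At an unadjusted p under 0.05 there were 7 higher and 1 lower, beside 16.9% of all genes, with a lowest adjusted p of 0.170. The summed immediate early and heat shock genes moved with it in these B cells, with medians of 4937 CPM in Eµ-PRMT5, 1641 CPM in Eµ-TCL1 and 2144 CPM in Eµ-PRMT5/TCL1 spleens, and their part was not tested. The higher part was spread over the groups of the list, with 10 of 12 canonical NF-κB genes (median 0.39), 6 of 6 genes of Tnf processing and mRNA decay (0.59), 8 of 11 receptor adaptor genes (0.26), 3 of 4 non-canonical NF-κB genes (0.11) and both lymphoid homing chemokine receptors (1.24), while the single further receptor or ligand gene tested was lower (-0.42). When Eµ-PRMT5/TCL1 spleens were set against Eµ-TCL1, 19 of 36 were higher (median 0.02, 1 at an unadjusted p under 0.05 beside 4.56% of all genes). In nodes it was 21 of 36 (median 0.04, 2 at an unadjusted p under 0.05 beside 6.8%). In Eµ-PRMT5/TCL1 against Eµ-PRMT5 spleens, which share the Eµ-PRMT5 libraries with the first comparison, 6 of 36 were higher (median -0.34 beside -0.04 over all genes, 5 at an unadjusted p under 0.05 beside 8.78%). T and myeloid cells had medians between -0.06 and 0.18 in the genotype comparisons, and 0 to 5 genes of the list had an unadjusted p under 0.05. In T cells these were 4 of 37 beside 5.98% of all genes (Eµ-PRMT5 against Eµ-TCL1), 2 beside 7.08% (Eµ-PRMT5/TCL1 against Eµ-TCL1), 0 beside 4.83% (Eµ-PRMT5/TCL1 against Eµ-PRMT5) and 3 beside 14.1% in nodes. In myeloid cells of spleens they were 2, 5 and 4 of 36 beside 3.06%, 1.75% and 3.11%, in the same order.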

How the data were processed

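The authors deposited UMI counts per gene and barcode for 20 tissues, made with Cell Ranger (2.0.1 in the submitters' processing notes, 3.1.0 in the headers of the matrices) on GRCm38 and analysed with Seurat 2.2.1. These counts were used as deposited, with no barcode filter taken from the authors. Barcodes were called as cells above the 99th percentile of the top 3000 UMI totals divided by 10 (1745 to 4399 UMIs by library). A minimum of 200 genes and a maximum of 10% mitochondrial UMIs were set. A library held 9348094 to 72440894 UMIs, of which 79.7 to 94.5% lay in called barcodes. Scrublet, as in scanpy 1.11.5 with a rate of 0.8% per 1000 cells, removed 905 of 87773 cells, but 5 of the largest libraries lost under 0.5% of their cells, so doublets remain likely there. T cells had at least 2 UMIs of Cd3d, Cd3e and Cd3g and at most 1 of Cd79a and Cd79b. Myeloid cells had at least 2 UMIs of Tyrobp and Fcer1g, at least 5 of Lyz2, Cst3, Csf1r, Csf3r, S100a8, S100a9, Mpo and Ctsg, and at most 1 of natural killer genes.

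Counts were summed per library and class (at least 20 cells) and tested in edgeR 4.0.16 (quasi-likelihood, TMM, limma 3.58.1, R 4.3.3) over all genes that passed its filter on low counts, with Benjamini-Hochberg adjustment and a threshold of 0.05. Spleens of 3 groups shared a fit, and node and spleen were paired by mouse. The groups are separate mice. Counts of 0 allow up to 3 counts, and these floors cover counting error only. Shares were thinned with seed 1 and tested by two-sided exact permutation (scipy 1.17.1). Ighv ratios had 0.5 UMIs added to each sum, over cells with at least 2 Ighv UMIs. Fits were tested on simulated data. Alternatives were DESeq2 1.42.0, other normalization, no filter, sex, cells of at least 500 UMIs, stricter gates, thinning to 2000 UMIs, a replicate block and leaving out each replicate. The genes and lists were chosen with earlier results of these data known. The text names the 6 genes, genes of the 38-gene list called by edgeR (none), and the 5 genes most like Ltb and Tnf by Spearman correlation of log2(CPM + 1). The shares, the Ighv split and the further alternatives for Lta were added after its values were seen.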

Additional observations from a re-analysis of the deposited data

Results flagged for a closer look

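Of 66 groups of 4 or 5 libraries tested for a library far from the others, 11 had one. This count cannot be set against a chance rate. A group at 0 but for 1 library is always flagged, and several flags came from the same spleen. Eµ-PRMT5/TCL1 spleen 4 stood apart from the other 3 spleens of its group in myeloid Ltbr (204 CPM), Tnfrsf1b (278 CPM) and Lta (0.702 CPM, 1 UMI) and in Tnfrsf1a (156 CPM) and Tnfrsf1b (312 CPM) of T cells. Its sum of immediate early and heat shock genes was also the highest of its group, at 6214 CPM in B cells, and the part of this in those levels was not tested. Myeloid Lta also stood apart in Eµ-PRMT5 spleen 4 (0.0875 CPM, 1 UMI) and Eµ-TCL1 spleen 3 (0.347 CPM, 2 UMIs), where all other libraries of the group were at 0. Ltbr of T cells was high in Eµ-PRMT5 spleen 4 (44.7 CPM from 52 cells) and low in Eµ-TCL1 spleen 2 (1.15 CPM), and myeloid Ltbr was low in Eµ-TCL1 spleen 3 (78.1 CPM). Ltb of B cells was high in Eµ-PRMT5/TCL1 spleen 2 (780 CPM), the spleen with the fewest B cells of all (262).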

How the results depend on the processing

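The 3.31 log2 difference of B-cell Lta between Eµ-PRMT5 and Eµ-TCL1 spleens kept its direction in every alternative run (adjusted p from 3.45e-09 to 0.291). It lost its call with all cells of at least 500 UMIs (3.30, adjusted p = 0.0543) and with sex as a covariate (2.93, adjusted p = 0.291), both leaving 0 of the 6 genes called. With 1 spleen left out it ranged from 3.02 to 3.53, with 0 to 1 genes called. The call held without Eµ-PRMT5 spleen 4, Eµ-PRMT5 spleen 5 or Eµ-TCL1 spleen 1 and was lost without any other spleen, and the cause was not tested. Over all genes in that comparison DESeq2 called 656 of 11421 and edgeR 3 of 11590. DESeq2 called 3 of the 6 genes there (Tnf at 1.86 and Ltb at -1.06 besides Lta), 2 for Eµ-PRMT5/TCL1 spleens against Eµ-TCL1 (Lta 2.96, Tnf 2.27), 1 in nodes (Lta 2.53) and 1 between tissues (Lta 0.90). In T cells between tissues 2 genes were called with no filter (Lta 1.21, Ltbr -2.28) and by DESeq2 (Lta 1.19, Ltbr -2.21).

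The replicate numbers of the groups did not pair the spleens (correlations of -0.112 to 0.162 for the same number, -0.218 to 0.196 for different numbers), and with the replicate block Lta stood at 3.42 (adjusted p = 0.0445) and no call changed. Without pairing by mouse the tissue difference of Lta in B cells was 0.85 (adjusted p = 0.5258).

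Directions turned in uncalled results only. With 1 mouse left out, the tissue difference of Tnf in B cells ranged from -0.31 to 0.82. The difference of the tissue effects between Eµ-PRMT5/TCL1 and Eµ-TCL1 mice ranged from -1.37 to 0.86 for Tnf and -0.59 to 0.067 for Lta. Each of these turned without the mouse of Eµ-TCL1 spleen 4 and node 3. In points of percent, the thinned share of B cells of Eµ-PRMT5/TCL1 less that of the Eµ-PRMT5 group ranged from -0.345 to 0.278 for Lta and -0.357 to 0.444 for Tnf, and the Tnf share between tissues from -0.285 to 0.262. The Ltb share between nodes was -1.60 unthinned against 5.75 thinned. Leading against other Ighv genes ranged from -2.76 to 0.63 (Lta, nodes), -0.51 to 1.27 (Tnf, nodes) and -0.50 to 0.10 (Tnf, spleens). Depth limits Ltbr in B cells, with 0 UMIs in 4 libraries, and Lta in myeloid cells. The sex covariate was run for spleens only.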
